A study of Sus scrofa with 20 samples.

Results

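TRIM (tripartite motif) proteins were described in peripheral blood mononuclear cells (PBMC) of weaned piglets fed diets that differed in phosphorus and calcium. The members were the genes whose platform annotation gives a symbol made of TRIM and a number, each represented by its probe set of highest mean over all arrays. This gave 49 TRIM genes with 88 probe sets, out of 13664 named genes. A probe set entered the tests when its value lay above the median of its own array on at least 16 of the 20 arrays, which 37 of the 49 TRIM genes and 9342 of the 13664 named genes did.

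Each array held the PBMC RNA of 1 German Landrace piglet at 63 days of age. The animals had received a diet low (L), medium (M) or high (H) in both minerals since weaning, and M was the control diet. The study reported that H piglets also ate less, gained less weight, had lower serum zinc and showed parakeratosis, a skin disorder. The part of these traits in the values below was not tested. There were 6 animals of the L group (3 females and 3 castrated males), 7 of the M group (4 females and 3 castrated males) and 7 of the H group (3 females and 4 castrated males). The piglets came from several litters, which the sample labels do not name, so that litter was in no fit here. PBMC are a mixture of lymphocytes and monocytes, and in such a bulk sample fewer cells of a type and less RNA per cell cannot be told apart. Animals are named below by the letter of their diet and their number in the labels.

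Most TRIM proteins have a RING finger, 1 or more B-boxes and a coiled coil, and most act as ubiquitin ligases that tag other proteins for degradation or signalling. The carboxy-terminal domain differs between members and sets what they bind. Several members serve antiviral defence in blood cells, either by adding ubiquitin chains to RNA sensors and their adaptors or by capturing virus particles, and in humans and mice the genes of many of these are themselves switched on by interferon. Others repress transcription at chromatin, bind RNA, or support muscle, cytoskeleton and erythroid cells.

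All values are log2 intensities after robust multi-array averaging (RMA), so that log2 fold changes are differences between them. Array medians lay between 4.29 and 4.46, and arrays correlated with the others at a median of 0.925 (H17, the lowest) to 0.961. Marker genes of monocytes, neutrophils, T cells and erythroid cells were all measured. Between H and L, 9 of 9 monocyte and 8 of 8 neutrophil markers kept had log2 fold changes above 0, and 11 of 11 T cell and 8 of 8 erythroid markers had log2 fold changes below 0. Of the kept B cell markers 1 was above and 7 below 0, of the NK cell markers 2 and 7, and of the platelet markers 6 and 1. The score of each list, its mean standardised value, ran for monocytes from -0.39 to 1.38 in H animals and from -1.37 to 0.30 in L animals. The neutrophil score ran from -0.56 to 1.21 in H animals and from -1.20 to 0.65 in L animals, and the T cell score from -2.24 to 0.54 in H animals and from -0.16 to 0.98 in L animals. Defining markers without a kept probe set under their symbol included CSF1R and CD68 for monocytes, MPO and ELANE for neutrophils, and ZAP70 and CD5 for T cells. Whether each lacked a named probe set or fell below the filter is not told apart here. HBB, the beta chain of haemoglobin, averaged 13.4 in H animals and 13.5 in L animals.

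The 37 kept members had means over the 20 arrays between 4.67 (TRIM7, a ligase studied in metabolism and virus infection) and 8.49 (TRIM33, a transcriptional cofactor of the TGF-beta pathway). Their standard deviation over the 20 animals ran from 0.14 to 0.68. Such levels come from different probe sets and are not compared with each other. The 12 members that did not pass were TRIM13, TRIM29, TRIM31, TRIM36, TRIM42, TRIM46, TRIM50, TRIM55, TRIM58, TRIM63, TRIM67 and TRIM69, with means of 2.47 to 4.45. TRIM55 and TRIM63, the muscle ring finger proteins of striated muscle, and TRIM58, which acts in late erythroblasts, are among them. The interferon-induced restriction factors TRIM5 and TRIM22 had no probe set with their symbol and were not analysed here. TRIM9, TRIM10, TRIM15 and TRIM28 stand on probe sets whose suffix marks probes that may match more than 1 transcript.

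No TRIM gene passed the call in any comparison between diets. The call asked for an unadjusted p below 0.01 in limma, a linear model fitted to all probe sets, together with a q-value (an estimate of the false discovery rate) below 0.21, the thresholds of the study's methods, and across all genes it was met in H against L by 2 of 9342 (0.0214%), in L against M by none (0%) and in H against M by 4 (0.0428%). Differences are therefore given below as values that did not pass, with their standard error and, for single members, an exact permutation p. The study itself reported many more probe sets past these thresholds in H against L. Its fit also had litter and its filter used presence on the arrays, so equal thresholds are not an equal call. At an unadjusted p below 0.05 there were 3 of 37 members (8.11%) in H against L, 1 higher and 2 lower, beside 9.17% of all genes (4.97% higher and 4.21% lower). In L against M it was 1 of 37 members (2.7%) beside 1.67% of all genes, and in H against M 2 of 37 (5.41%) beside 7.18%. These shares of members lay near those of all genes. The median log2 fold change of the members in H against L was 0.03 and that of all genes -0.02, with 22 of 37 members (59.5%) and 45.1% of all genes above 0. In L against M, 15 of 37 members (40.5%) and 53.4% of all genes were above 0, and in H against M 18 of 37 (48.6%) and 48.1%. The groups overlapped for all 37 members in each comparison. Of all genes, 0.257% had no overlap between H and L, 0% between L and M and 0.0642% between H and M. A count of 0 of 37 members lies near these shares.

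These counts moved with single animals, with weights for arrays and with the scaling, and the share of all genes is given from the same fit each time. In H against L the count was 7 without L10 (18.9%, beside 7.21% of all genes), 6 without H17 (16.2%, beside 5.9%) and 5 without H18 (13.5%, beside 9.91%). It was 1 (2.7%) without L9, L15, H7 or H11, beside 6.29%, 7.44%, 8.9% and 9.71% of all genes in that order. In L against M it was 0 without M19 (beside 1.5%), 3 without M1 (8.11%, beside 3.83%) and 2 (5.41%) without L6, L13, L15, M20 or H17, beside 1.34% to 2.85% of all genes. In H against M it was 5 without H17 (13.5%, beside 5.96%) and 1 without M2, M14, H7 or H12, beside 5.18% to 6.28%. With array weights in the fit it was 10 in H against L (27%, beside 13.3%). With each array centred on its median it was 5 in H against L (13.5%, beside 9.77%), of which 4 were higher (TRIM14, TRIM25, TRIM26 and TRIM56) and 1 lower (TRIM37).

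**Figure D1:**
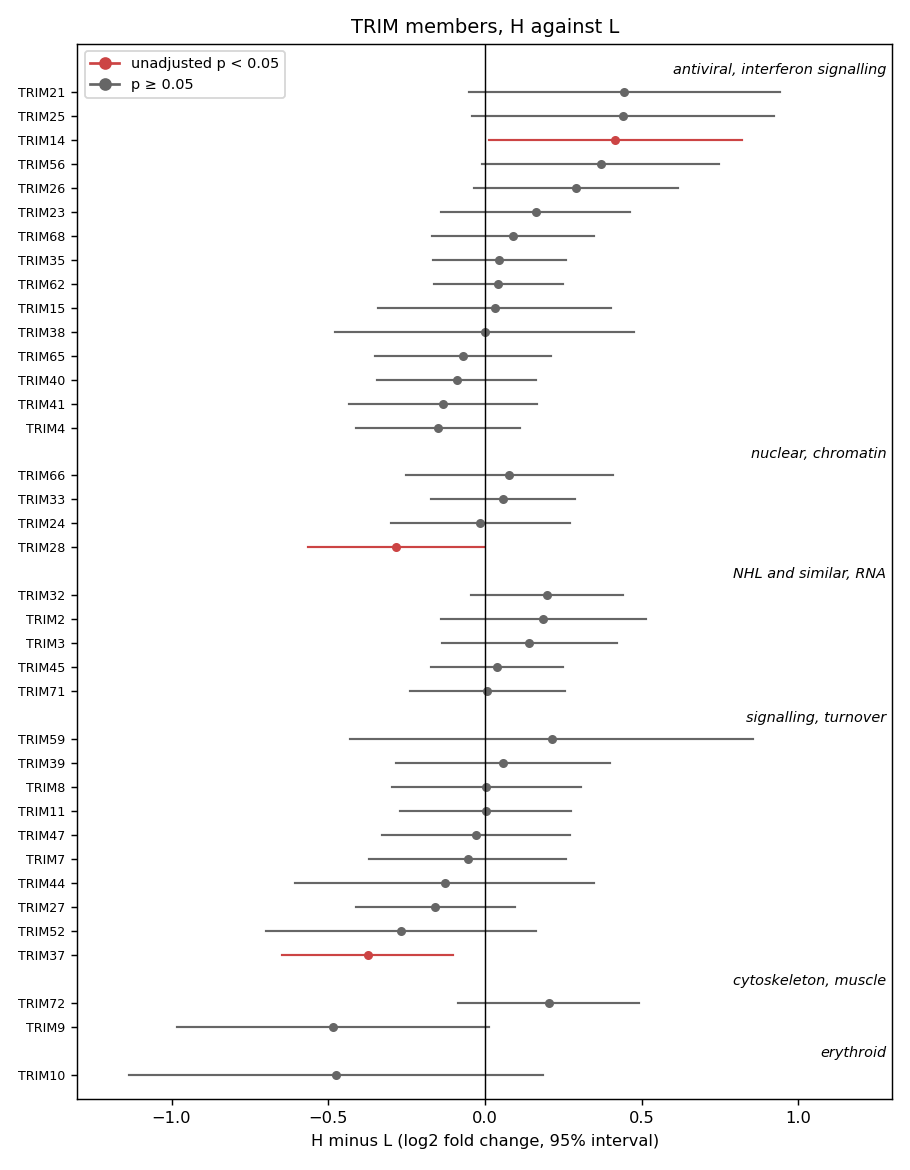
Log2 fold change of H against L (x axis) with its 95% interval for the 37 kept TRIM genes (y axis, by role and then by size). Points in red had an unadjusted p below 0.05, and 22 of the 37 estimates lie above 0.

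Among the antiviral and interferon-signalling members, 15 of 17 listed passed the filter, and 10 of the 15 had log2 fold changes above 0 in H against L, with a median of 0.05 and a range of -0.15 to 0.44. TRIM14, an adaptor that joins mitochondrial antiviral signalling, was the member of this group with an unadjusted p below 0.05. Its lowest, median and highest values were 6.63, 7.00 and 7.75 in H animals, against 6.30, 6.59 and 7.39 in L animals. All 7 H animals lay above the median of the L group and 2 of them, H7 and H11, above its highest animal, so the groups overlapped. H against L gave a log2 fold change of 0.42 (SE 0.19, 95% interval 0.01 to 0.82; limma, unadjusted p = 0.0439, q = 0.529), and the exact two-sided permutation test, which took every split of these 13 animals, gave p = 0.0909. The unadjusted p exceeded 0.05 without L5, L6, L9, L15, H3, H7 or H11, and the log2 fold change then lay between 0.31 (without H7) and 0.40 (without H3). With the scores of neutrophil and monocyte markers in the fit it was 0.30, also with an unadjusted p above 0.05.

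TRIM21 is a cytosolic antibody receptor that directs antibody-coated virus to the proteasome. Its values were 6.49, 6.99 and 7.99 (lowest, median, highest) in H animals, against 6.13, 6.66 and 7.33 in L animals. TRIM25, the ligase that modifies the RNA sensor RIG-I, had 6.74, 7.56 and 8.25 in H animals, against 6.74, 6.93 and 8.18 in L animals. Most H animals were above the L median for both genes, but 1 animal of the L group, L10, lay just below the 2 highest H animals for TRIM25. The log2 fold change was 0.44 for TRIM21 (SE 0.24, exact permutation p = 0.123) and 0.44 for TRIM25 (SE 0.23, exact permutation p = 0.154), and neither reached an unadjusted p of 0.05 in limma. Without L10 the values were 0.59 for TRIM21 and 0.67 for TRIM25, without H17 they were 0.56 and 0.58, and without H4 it was 0.53 for TRIM21, and in these fits the unadjusted p was below 0.05. In the other direction, the lowest values were 0.30 for TRIM21 without H7 and 0.34 for TRIM25 without L6, both with an unadjusted p above 0.05. The second kept probe set of TRIM21 gave 0.09 (SE 0.14).

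TRIM56, which supports signalling from double-stranded RNA and cytosolic DNA, had 7.63, 7.81 and 8.35 (lowest, median, highest) in H animals, against 6.96, 7.65 and 8.28 in L animals. TRIM26, a ligase reported to act on the transcription factor IRF3 in the nucleus, had 6.49, 7.11 and 7.45 in H animals, against 6.42, 6.71 and 7.18 in L animals. In both genes the upper part of the H group was above the L group apart from L10. H against L gave 0.37 for TRIM56 (SE 0.18, 95% interval -0.01 to 0.75, exact permutation p = 0.129) and 0.29 for TRIM26 (SE 0.16, exact permutation p = 0.126). Without L10 these were 0.52 for TRIM56 and 0.38 for TRIM26, with an unadjusted p below 0.05. The same was so without H17 or H18 for both genes, and without L13 or H3 for TRIM56, with log2 fold changes of 0.40 to 0.43 for TRIM56 and of 0.36 and 0.39 for TRIM26. The lowest values were 0.25 for TRIM56 without L5 and 0.21 for TRIM26 without L15, both with an unadjusted p above 0.05. Their second kept probe sets gave 0.18 for TRIM56 (SE 0.11) and 0.12 for TRIM26 (SE 0.13).

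TRIM38, an interferon-induced ligase that restrains inflammatory signalling, had medians that lay close together, at 7.06 in H animals and 6.98 in L animals. Its range was 6.13 to 7.52 in H animals and 6.77 to 7.64 in L animals, and the lowest value of all belonged to H17. Its log2 fold change was -0.00 (SE 0.23, 95% interval -0.48 to 0.48, exact permutation p = 0.994), and this interval includes the estimates of the other 5 genes.

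**Figure D2:**
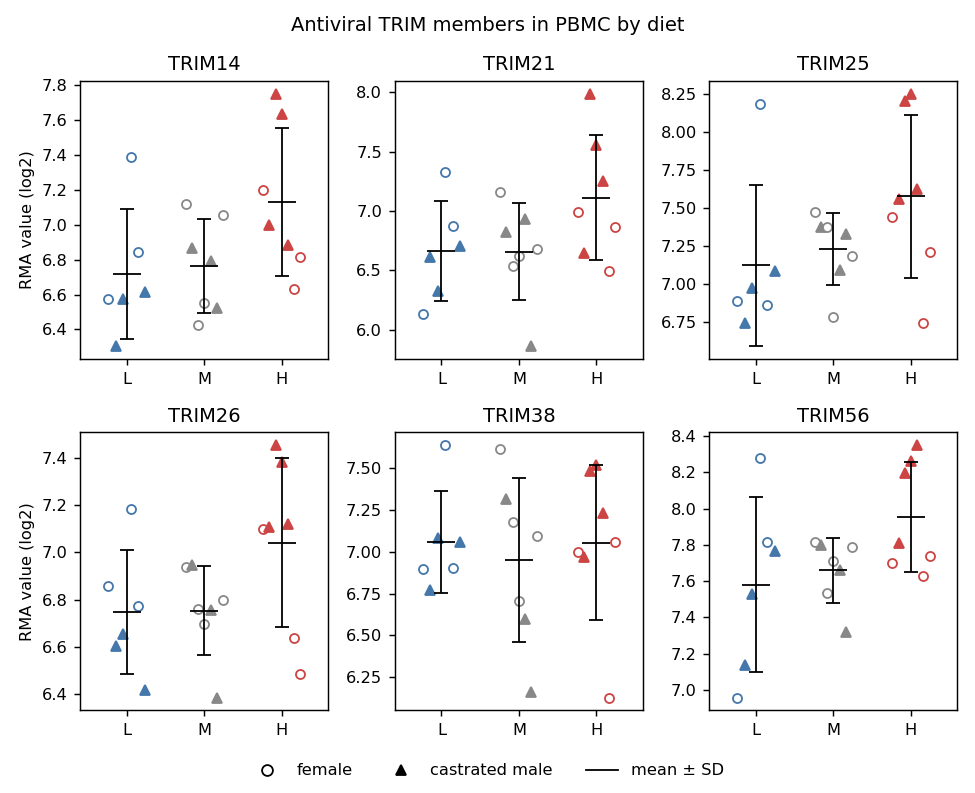
Log2 RMA values (y axis) of 6 antiviral TRIM genes in each animal of the L, M and H groups (x axis, 6, 7 and 7 animals), with open circles for females, triangles for castrated males and bars for mean ± SD. The H and L groups overlap in every panel, and the median of the H group is above that of the L group.

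Against the control diet the same 5 genes stood as follows. H against M gave log2 fold changes of 0.45 for TRIM21 (SE 0.23, exact permutation p = 0.0985) and 0.37 for TRIM14 (SE 0.19, exact permutation p = 0.0775). It gave 0.28 for TRIM26 (exact permutation p = 0.0857), 0.29 for TRIM56 (p = 0.0624) and 0.32 for TRIM25 (p = 0.147). In L against M the 5 genes ran from -0.12 to 0.00, and 11 of the 15 kept antiviral members had log2 fold changes below 0. H against L and H against M share the H animals, so the 2 sets of values are not independent of each other.

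The nuclear members carry a PHD finger and a bromodomain and regulate transcription. All 4 listed (TRIM24, TRIM28, TRIM33 and TRIM66) passed the filter. TRIM28, known as KAP1, is the corepressor that zinc finger proteins recruit to silence repeats and genes. It had 7.75, 8.01 and 8.12 (lowest, median, highest) in H animals, against 7.91, 8.23 and 8.53 in L animals, and 3 H animals lay below the lowest L animal. H against L gave -0.28 (SE 0.13, 95% interval -0.56 to -0.00; limma, unadjusted p = 0.0480, q = 0.535), with an exact permutation p of 0.0420. The second kept probe set of TRIM28 gave -0.20 (SE 0.17). Leaving out 1 animal at a time kept its sign, at -0.34 to -0.23, and its unadjusted p stayed below 0.05 in 8 of 20 such fits. It did not without L5, L9, L15, M2, M8, M16, M19, M20, H7, H11, H12 or H17.

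TRIM24, a coactivator of nuclear receptors, had 6.95, 7.17 and 7.56 in H animals, against 7.04, 7.18 and 7.62 in L animals. TRIM33 had 8.48, 8.51 and 8.67 in H animals, against 8.17, 8.51 and 8.82 in L animals, a narrower spread within H than within L. The log2 fold changes were -0.01 for TRIM24 (SE 0.14, exact permutation p = 0.877) and 0.06 for TRIM33 (SE 0.11, exact permutation p = 0.575). Among 14 partners of TRIM28 in repression, all of which passed the filter, 5 had log2 fold changes above 0 and 9 below 0 in H against L. At an unadjusted p below 0.05, 1 was higher and 1 lower, beside 4.97% and 4.21% of all genes. The higher was RARA, a retinoic acid receptor, at 0.60 (SE 0.25, q = 0.487). The lower was CBX5, the heterochromatin protein HP1 alpha, at -0.49 (SE 0.20, q = 0.487). CBX1, which encodes HP1 beta, had -0.25 (SE 0.13) and CHD3, a subunit of the NuRD remodeller, had -0.29 (SE 0.15).

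The signalling and protein turnover members included TRIM37, which had the smallest p in H against L among the probe sets that stood for each member. It is a peroxisomal ligase that also controls centrosomes and is mutated in the human growth disorder mulibrey nanism. Its lowest, median and highest values were 5.83, 6.04 and 6.34 in H animals, against 6.11, 6.43 and 6.81 in L animals. In all, 4 H animals were below every L animal and the other 3 lay inside the L range. Its log2 fold change was -0.37 (SE 0.13, 95% interval -0.65 to -0.10; limma, unadjusted p = 0.00940, q = 0.434), and the exact permutation test gave p = 0.00991. Over leaving out each animal in turn it ranged from -0.44 to -0.30 with an unadjusted p below 0.05 in all 20 fits.

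In M animals TRIM37 had 6.06, 6.30 and 6.76, and H against M gave -0.28 (SE 0.13, q = 0.674, exact permutation p = 0.0274), whereas L against M gave 0.09 (SE 0.13, exact permutation p = 0.487). In H against M, 13 of the 20 fits that leave out 1 animal kept an unadjusted p below 0.05, and the log2 fold change ran from -0.35 to -0.21, the smallest in size without M2. The p exceeded 0.05 without M1, M2, M14, H7, H12, H17 or H18. A second kept probe set of TRIM37 followed the first over the 20 animals (r = 0.692) and gave -0.19 in H against L (SE 0.17). With the scores of neutrophil and monocyte markers added to the fit, TRIM37 in H against L was -0.18 and its unadjusted p exceeded 0.05.

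The other 9 kept members of this group had log2 fold changes in H against L between -0.27 and 0.21, each with an unadjusted p above 0.05. TRIM7 had 4.35, 4.68 and 4.79 in H animals, against 4.23, 4.69 and 5.11 in L animals. TRIM27, a regulator of endosomal sorting and signalling that is named here after its values were seen, gave -0.16 (SE 0.12, exact permutation p = 0.148) with its first probe set and -0.42 (SE 0.14) with its second, whose unadjusted p was below that of TRIM37. Both probe sets of TRIM27 moved together over the animals (r = 0.725).

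The 4 members of the NHL class and their relative TRIM45, which bind RNA or support cell growth control, had log2 fold changes above 0 in H against L, 5 of 5, from 0.01 to 0.20 and none with an unadjusted p below 0.05. The value nearest to that was for TRIM32, a ligase of muscle and neural progenitors, at 0.20 (SE 0.12, exact permutation p = 0.0682). In L against M, 4 of these 5 were below 0.

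TRIM72 and TRIM9 were the kept members of the cytoskeleton and muscle group. TRIM72, also called MG53, takes part in the repair of muscle cell membranes and was the only member with an unadjusted p below 0.05 in L against M. It had 5.41, 5.70 and 5.98 (lowest, median, highest) in L animals, against 5.79, 6.03 and 6.43 in M animals, and 4 of the 6 L animals were below the lowest M animal. L against M gave -0.35 (SE 0.14, 95% interval -0.64 to -0.07; limma, unadjusted p = 0.0186, q = 1), with an exact permutation p of 0.0186. Without M19 it was -0.27, with an unadjusted p above 0.05. H animals had 5.52, 5.96 and 6.14, and H against L gave 0.20 (SE 0.14, exact permutation p = 0.171).

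TRIM9, a brain-enriched ligase named here after its values were seen, had 5.42, 6.51 and 7.13 in H animals, against 6.57, 6.80 and 7.11 in L animals. The H group was spread wider than the L group (SD 0.58 and 0.19), with a log2 fold change of -0.48 (SE 0.24, 95% interval -0.98 to 0.01, exact permutation p = 0.102). Its other 4 probe sets did not pass the filter.

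TRIM10, an erythroid member needed for terminal differentiation of red cell precursors in mouse cells, had the lowest log2 fold change of the members in H against M. Its lowest, median and highest values were 4.16, 5.45 and 5.97 in H animals, against 4.87, 6.13 and 6.61 in M animals. All but 1 M animal lay above the H median and the lowest value of all was that of H12. H against M gave -0.75 (SE 0.31, 95% interval -1.39 to -0.11; limma, unadjusted p = 0.0229, q = 0.645), with an exact permutation p of 0.0303. Without H12 it was -0.55 and without M14 -0.65, both with an unadjusted p above 0.05.

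In L animals TRIM10 had 4.75, 5.76 and 6.73, and H against L gave -0.48 (SE 0.32, exact permutation p = 0.241), and -0.66 without L5, where the unadjusted p was below 0.05, but -0.26 without H12, where it was above 0.05. Between H and M, 8 of 8 erythroid marker genes had log2 fold changes below 0, and 3 of them had an unadjusted p below 0.05: SLC4A1 at -1.20, EPB42 at -1.04 and AHSP at -0.94. Of all genes, 3.2% were lower at that level. The erythroid score ran from -2.27 to 0.22 in H animals and from -1.17 to 0.89 in M animals. The part of erythroid cells in the TRIM10 value was not tested.

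**Figure D3:**
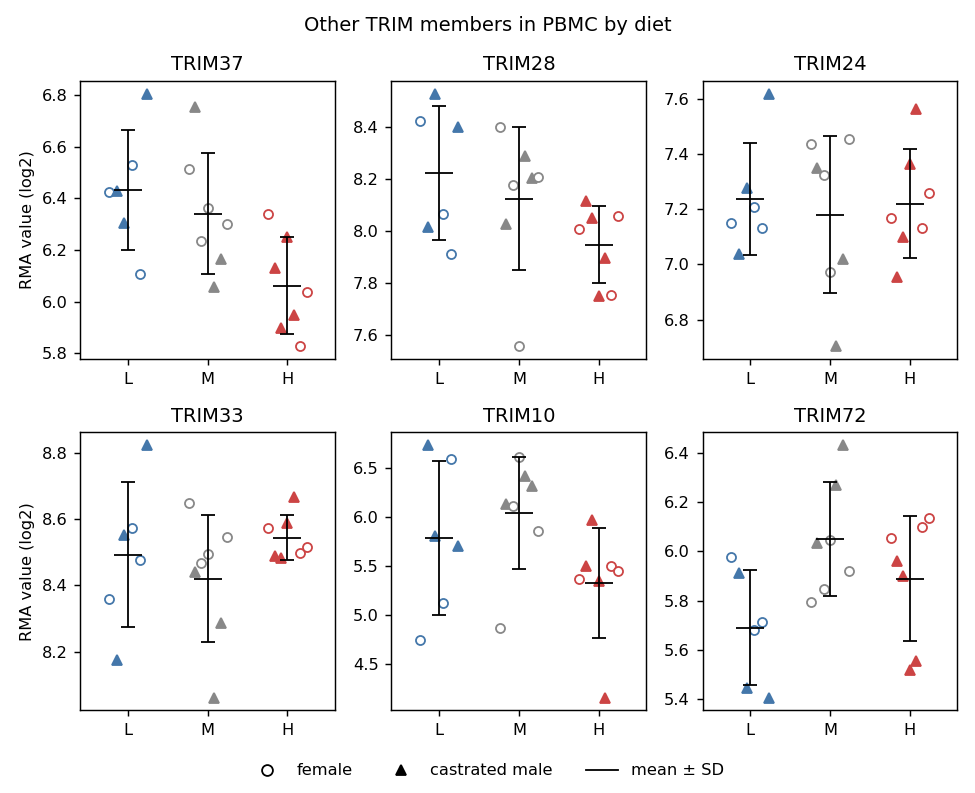
Log2 RMA values (y axis) of TRIM37, TRIM28, TRIM24, TRIM33, TRIM10 and TRIM72 in each animal of the L, M and H groups (x axis, 6, 7 and 7 animals), with open circles for females, triangles for castrated males and bars for mean ± SD. TRIM37 is lower in most H animals, TRIM72 in most L animals, and 1 H animal is far below the rest for TRIM10.

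The members were also grouped by carboxy-terminal domain. The SPRY class, whose domain binds proteins such as antibody or viral capsid, had 19 of 22 members kept, 11 above and 8 below 0 in H against L, with a median of 0.03. The 4 members with a PHD finger and bromodomain were divided evenly, 2 above and 2 below 0. All 4 NHL members were above 0, with values of 0.01 to 0.20.

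Interferon genes were scored next, because many of the antiviral members are known as interferon-stimulated genes in humans and mice. The list of interferon-stimulated genes held no TRIM gene, and 36 of its 48 genes passed the filter. Of these, 34 had log2 fold changes above 0 in H against L, with a median of 0.78 against -0.02 for all genes. At an unadjusted p below 0.05, 25 were higher and none lower, beside 4.97% and 4.21% of all genes. OAS1, which makes the second messenger that activates RNase L, had a log2 fold change of 1.59 (SE 0.37). IFIT2 and IFIT3, interferon-induced proteins that act against viral RNA, had 1.44 and 1.29, and DTX3L, a ubiquitin ligase partner of PARP9, had 1.0. None of the 36 passed the call in the fit used here. The study, whose fit also had litter, listed OAS1 and IFIT3 among its responsive transcripts between L and H.

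Among the RNA sensors and interferon signalling genes, 25 of 30 passed the filter, and 20 were above 0 and 5 below. At an unadjusted p below 0.05, 5 were higher and none lower, beside 4.97% and 4.21% of all genes. The 5 included DDX58 (RIG-I, the substrate of TRIM25) at 1.23 (SE 0.39), IFIH1 at 0.88, DHX58 at 0.85 and IFNAR2, a subunit of the interferon receptor, at 0.32. Among 17 kept partners in ubiquitin transfer of 24 listed, 8 were above 0 and 9 below. At that level 3 were higher and 1 lower, beside the same shares of all genes. The higher were UBA7, the ISG15-activating enzyme (0.68, SE 0.22), UBE2D1, a general conjugating enzyme (0.64, SE 0.26), and UBE2L6, the conjugating enzyme of ISG15 (0.49, SE 0.23). The lower was UBB, a ubiquitin gene (-0.43, SE 0.18). UBE2L6, DDX58, IFIH1 and DHX58 also stand in the interferon list, so these lists are not separate evidence.

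Each member was then set against the interferon score, the mean standardised value of those 36 genes, over the 20 animals, which gave 37 relations. After Benjamini-Hochberg adjustment over all 37 relations, 5 members had an adjusted p below 0.05, and these 5 correlated positively. TRIM21 had r = 0.873 and rho = 0.809, TRIM56 had r = 0.838 and rho = 0.80, and TRIM14 had r = 0.836 and rho = 0.815. The permutation p of each of these r was 1e-05, the smallest that 100000 resamples give (adjusted p = 0.000123). TRIM26 had r = 0.807 and rho = 0.768 (adjusted p = 0.000185), and TRIM25 had r = 0.716 and rho = 0.600 (permutation p = 0.00031, adjusted p = 0.00229, and 0.0462 for rho). The second kept probe sets of 3 of these genes had lower values, with r = 0.244 for TRIM21, 0.159 for TRIM56 and 0.545 for TRIM26, none with an adjusted p below 0.05.

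An r of at least 0.716 was found in 5 of 37 members (13.5%) and in 111 of the 9306 genes outside the list (1.19%). The median r of the 37 members was -0.079, beside 0.0135 for those genes, and 15 of 37 were above 0, beside 51.5%. TRIM38 had r = 0.453 and rho = 0.414 (adjusted p = 0.183). TRIM23, which activates TBK1 in human cells, had r = 0.50 (adjusted p = 0.111), and the most negative values were those of TRIM28 (r = -0.521) and TRIM47 (r = -0.503), both with an adjusted p of 0.111.

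Centring the values within diets kept all 5, with r from 0.640 (TRIM25) to 0.842 (TRIM21), so the relation held between animals on the same diet. Within the L, M and H groups, r was 0.954, 0.923 and 0.831 for TRIM21. TRIM25 was the exception, with 0.702 in L, -0.157 in M and 0.790 in H. Leaving out the 2 animals farthest from the median score, L9 and H7, also kept all 5, with r from 0.635 to 0.866. The scores of interferon genes and monocyte markers themselves correlated (r = 0.586), and the part of monocytes in these relations was not tested.

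**Figure D4:**
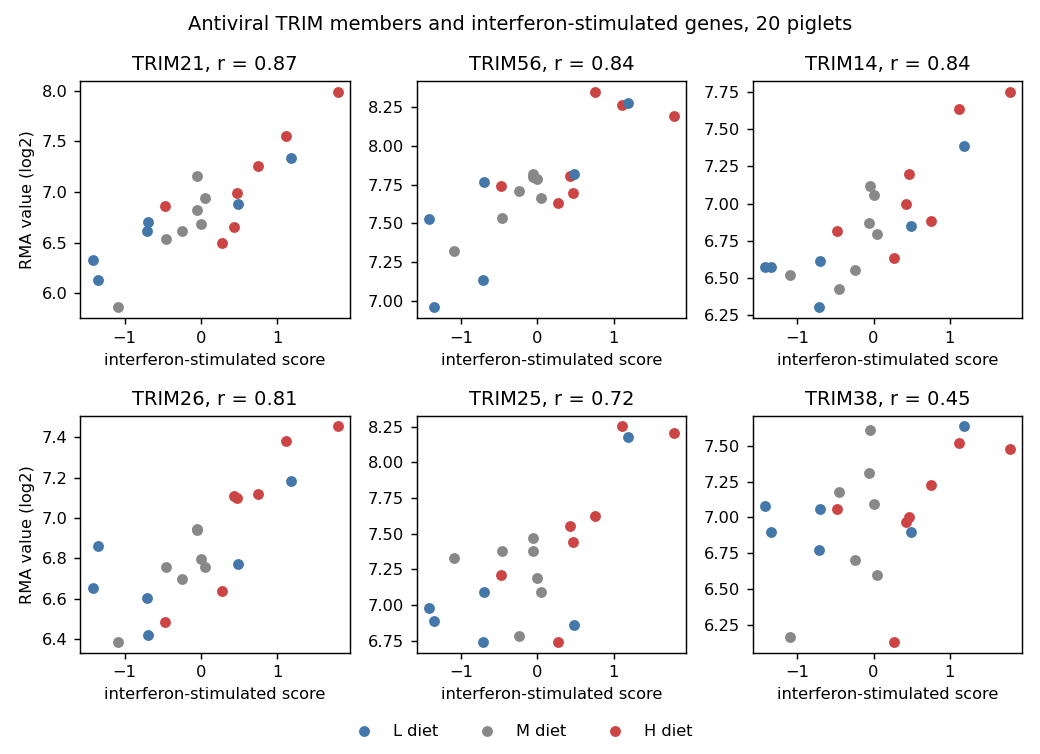
Log2 RMA values (y axis) of 6 antiviral TRIM genes against the interferon score (x axis, mean standardised value of 36 interferon-stimulated genes without TRIM genes) in the 20 animals, coloured by diet. Pearson r runs from 0.453 for TRIM38 to 0.873 for TRIM21.

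The same members followed each other. Among the 15 pairs of TRIM14, TRIM21, TRIM25, TRIM26, TRIM38 and TRIM56, r ran from 0.600 to 0.849 with a median of 0.740, beside a median of 0.014 over all 666 pairs of kept members. Of these 15 pairs, 13 had an adjusted p below 0.05 over the 666 by r and 12 by rho. The highest were TRIM14 with TRIM25 (r = 0.849, rho = 0.749), TRIM14 with TRIM26 (r = 0.845) and TRIM14 with TRIM21 (r = 0.843). Within diets r stayed between 0.561 and 0.814.

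Outside these 6 genes 10 pairs passed by r. Over all pairs of kept members, those of the 6 genes included, 17 passed by rho and 15 by both r and rho. TRIM24 and TRIM33, which form a complex, had r = 0.803 (rho = 0.702, adjusted p = 0.00333 by r). TRIM32 and TRIM52 ran opposite to each other (r = -0.782, rho = -0.731, adjusted p = 0.00333 by r). TRIM32 and TRIM52 were paired here after their values were seen, and the 20 animals share arrays and normalization across all pairs.

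Members were also set against the marker scores of 7 cell types, chosen after seeing the data, which with the interferon score made 296 relations. By r, 12 of these had an adjusted p below 0.05, the 5 above and 7 others. TRIM10 followed the erythroid score (r = 0.904, rho = 0.854). Of the genes outside that list, 0.225% had an r at least as far from 0 in the same direction. The shares of genes below are counted likewise. TRIM8, a regulator of cytokine signalling, followed the NK cell score (r = 0.842, rho = 0.817, beside 0.589% of genes), and so did TRIM38 (r = 0.673, rho = 0.717, beside 3.73% of genes). TRIM4, which modifies RIG-I, followed the T cell score (r = 0.747, rho = 0.591, beside 4.72% of genes), but r was 0.592 (adjusted p = 0.124) without the 2 animals farthest from the median score, H12 and H17.

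TRIM37 ran opposite to the monocyte score (r = -0.694, rho = -0.626, adjusted p = 0.0204), beside 0.204% of genes with an r as far below 0. It ran with the T cell score (r = 0.651, adjusted p = 0.0496), beside 11.6% of genes. Centred within diets the monocyte relation of TRIM37 was r = -0.508 (adjusted p = 0.127). Without H12 and H17, the animals farthest from the median of both scores, r was -0.572 for the monocyte score (adjusted p = 0.152) and 0.49 for the T cell score (adjusted p = 0.232), with the same signs in the 18 other animals. With the neutrophil score TRIM37 had r = -0.630 (adjusted p = 0.0610), and r = -0.777 (adjusted p = 0.00947) without M8 and H3, the animals farthest from the median of that score. TRIM59, a ligase of inflammatory and proliferating cells, ran opposite to the platelet score (r = -0.647, rho = -0.642, adjusted p = 0.0496, beside 0.161% of genes).

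**Figure D5:**
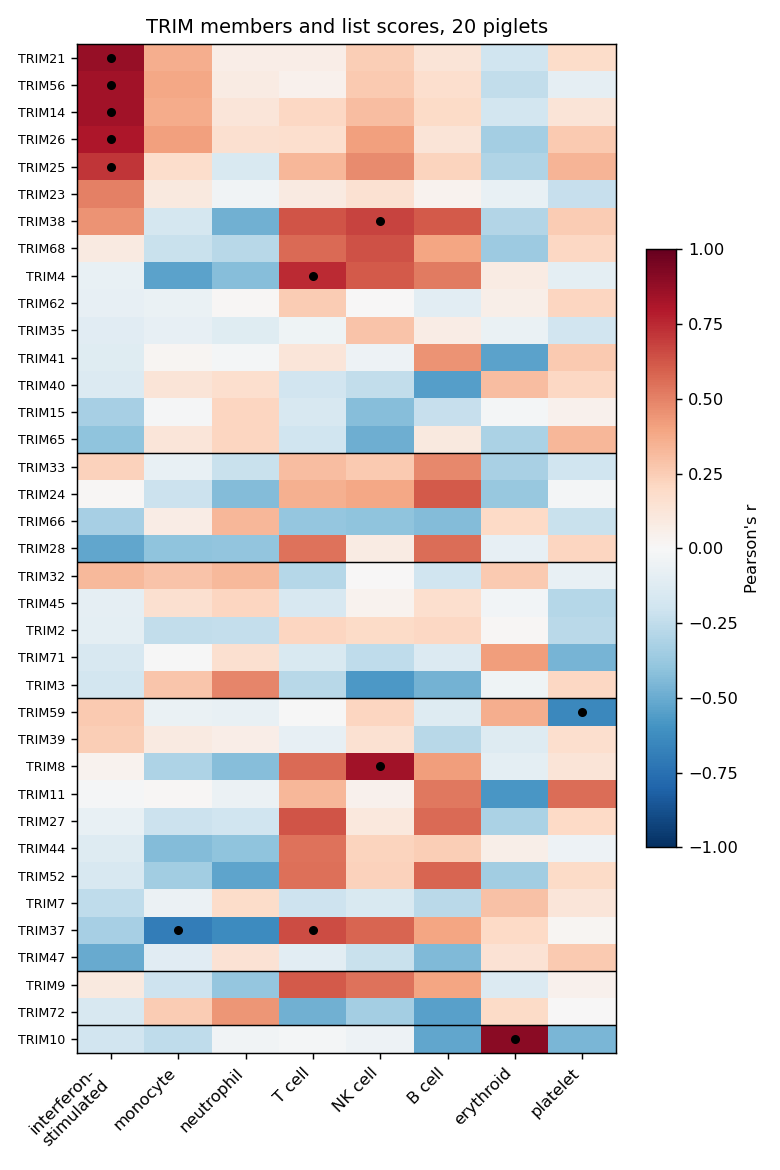
Pearson r (colour) of the 37 kept TRIM genes (rows) with the scores of 8 gene lists (columns) over the 20 animals, with dots where the adjusted p over all 296 relations is below 0.05. In all, 12 cells carry a dot, 5 of them in the interferon column.

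Sex was examined for the members because the animals were females and castrated males. Females against castrated males gave an unadjusted p below 0.05 for 1 member (2.7%, beside 1.83% of all genes), TRIM62, a ligase of innate immune adaptors. Its values were 5.02 to 5.41 in 10 females and 5.24 to 5.64 in 10 castrated males, with a log2 fold change of -0.21 (SE 0.08, q = 1). The difference between H and L was then compared between the sexes with an interaction term, and 4 of 37 members (10.8%) had an unadjusted p below 0.05, beside 5.26% of all genes. None of them had a q below 0.804.

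TRIM26 had values of 6.49 to 7.10 in 3 females of the H group and 6.77 to 7.18 in 3 females of the L group. In castrated males TRIM26 ran from 7.11 to 7.45 in 4 animals of the H group and from 6.42 to 6.65 in 3 of the L group. Its log2 fold change was -0.20 in females and 0.71 in castrated males, a difference of -0.90 (females minus castrated males, SE 0.25, q = 0.804), which kept an unadjusted p below 0.05 in all 13 fits that leave out 1 H or L animal.

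TRIM25 had 6.74 to 7.44 in H females and 6.86 to 8.18 in L females, and 7.56 to 8.25 in H castrated males and 6.74 to 7.09 in L castrated males. The difference was -1.15 (SE 0.41), and -0.72 without L10, and it kept an unadjusted p below 0.05 in all 13 fits. TRIM14 gave -0.87 (SE 0.35), and -0.65 without L10, with an unadjusted p above 0.05 without L6, L10, H7 or H17. TRIM47, a ligase named here after its values were seen, went the other way, with 0.60 (SE 0.26), and an unadjusted p above 0.05 without L6, L9, L10, L13, H3 or H12. Without 1 H or L animal, the number of members with an unadjusted p below 0.05 ran from 2 to 6.

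Females of the H group lay above all females of the L group in 1 of 37 members, TRIM72 (2.7%, beside 4.41% of all genes), and below them in 1, TRIM9 (2.7%, beside 11.3%). Castrated males of the H group lay above all castrated males of the L group in 4 of 37 members, TRIM14, TRIM25, TRIM26 and TRIM56 (10.8%, beside 5.52% of all genes). They lay below them in 2 members, TRIM37 and TRIM47 (5.41%, beside 2.16%). The interferon score ran from -0.48 to 0.47 in H females and from -1.35 to 1.18 in L females. It ran from 0.43 to 1.79 in H castrated males and from -1.42 to -0.69 in L castrated males, so that it too did not overlap between the diets in castrated males.

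The monocyte and T cell scores also differed in overlap between the sexes, while the neutrophil score overlapped in both. The monocyte score ran from -0.22 to 1.38 in H castrated males and from -1.37 to -0.51 in L castrated males, with no overlap. In females it ran from -0.39 to 1.22 in H animals and from -0.68 to 0.30 in L animals, which overlapped. The T cell score did not overlap in females, at -2.24 to -0.48 in H animals and -0.16 to 0.65 in L animals, but did in castrated males, at -0.96 to 0.54 in H animals and -0.15 to 0.98 in L animals. The part of these cells in the values of the members within each sex was not tested.

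Several members lie side by side in the RefSeq annotation of the pig assembly Sscrofa11.1. TRIM31, TRIM40, TRIM10, TRIM15 and TRIM26 are neighbours with no coding gene between them, and TRIM39 follows 7 coding genes on. Of the kept genes in this block, TRIM26 and TRIM10 were opposite in sign in H against L (0.29 and -0.48), and TRIM15 and TRIM40 were near 0 (0.03 and -0.09). TRIM68 and TRIM21 are separated by 9 coding genes and gave 0.09 and 0.44.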

How the data were processed

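PBMC RNA of 20 piglets was hybridised to the pig Snowball expression array. Per the labels, the authors read the arrays with GCOS 1.1.1 and deposited log2 values after RMA background correction, quantile normalization and summary by probe set, as 47845 probe sets on 20 arrays. Scanner files were not used here. Symbols were taken from the platform annotation, which gives 26426 probe sets 1 name and 21419 none, and 123 control probe sets were left out. RefSeq (Sscrofa11.1) was used only for neighbouring genes. The number of arrays limits the precision.

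Probe sets above the median of their array on at least 16 of 20 arrays (22127) were fitted together with limma 3.58.1 (R 4.3.3), with diet and sex as terms and all 3 diets sharing 1 estimate of the spread. The study's methods also had litter, which the labels do not give. A call needed an unadjusted p below 0.01 and a Storey q below 0.21 over all probe sets. Counts over genes used 1 probe set per gene of highest mean. Exact two-sided permutation tests ran over every split of the animals of the 2 groups. Correlations (numpy 2.4.6, scipy 1.17.1, Python 3.11.15) used two-sided permutation tests with 100000 resamples and Benjamini-Hochberg adjustment. The fit was tested on simulated data before use. P-values set a difference or a correlation against the spread between these animals, which came from several litters that no fit held.

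Members and gene lists were chosen with earlier results of these data known. Named were members with an unadjusted p below 0.05 in a diet comparison (at least 6, those of smallest p), TRIM5, TRIM14, TRIM21, TRIM22, TRIM25, TRIM26, TRIM38, TRIM56, TRIM24, TRIM28 and TRIM33 where measured, the kept members of highest and lowest mean, and from each pathway list up to 4 genes of smallest p in H against L. Other genes were named after their values were seen. Alternatives were the filter, sex, variance moderation, array weights, centring, a fit on H and L only, averaged probe sets, marker scores as covariates and leaving out each animal. Relations with marker scores, pairs of members, other probe sets and comparisons within a sex were added after seeing the data.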

Additional observations from a re-analysis of the deposited data

Results flagged for a closer look

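Single animals stood far from the rest of their group in 13 of the 111 combinations of a kept member and a diet group, by the gap to the nearest animal relative to the range of the group (Dixon's test at the 95% level). Chance gives about 1 in 20 such groups. In the L group, L5 had the highest value for TRIM11 (6.20), TRIM15 (5.78) and TRIM65 (5.85), L10 for TRIM25 (8.18) and TRIM38 (7.64), and L15 for TRIM44 (5.88), while L10 had the lowest for TRIM71 (4.73). In the M group, M1 had the highest value for TRIM11 (6.55), M19 for TRIM3 (5.70) and M20 for TRIM45 (5.29). In the H group, H12 had the lowest value for TRIM10 (4.16), beside the lowest erythroid score of all animals (-2.27). H17 had the lowest value of the H group for TRIM38 (6.13) and TRIM68 (6.14), beside the lowest T cell score (-2.24) and the lowest correlation with the other arrays (0.925).

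The difference between H and L animals itself differed between females and castrated males in 4 of 37 members at an unadjusted p below 0.05 of the interaction term (limma), where 5.26% of all genes did. Given as females minus castrated males on the log2 scale, it was -0.87 for TRIM14, -1.15 for TRIM25, -0.90 for TRIM26 and 0.60 for TRIM47. No probe set passed the call for this term.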

How the results depend on the processing

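The count of members called was 0 in each diet comparison and alternative but 1, array weights in H against L. There 1 of 37 members (TRIM14) was called, beside 943 of all 22127 probe sets. The number of members with an unadjusted p below 0.05 in H against L was 3, beside 9.17% of all genes. It was 10 with array weights, 5 with arrays centred on their median and from 1 to 7 when each animal was left out. With the neutrophil and monocyte scores as covariates it was 2, TRIM2 and TRIM9. In those fits, in that order, 13.3%, 9.77%, from 5.9% to 9.96% and 3.13% of all genes did so. In L against M it was 1. It was 2 without the filter, 0 above the 75th percentile, 2 without sex, 3 with array weights, 2 with centred arrays, 2 with the mean of all probe sets and from 0 to 3 when each animal was left out. In that order, 2.31%, 1.24%, 1.7%, 2.93%, 1.71%, 1.66% and from 1.18% to 3.83% of all genes did so, beside 1.67% in the main fit. In H against M it was 2. It was 1 above the 75th percentile, 4 with array weights, 0 with the neutrophil and monocyte scores as covariates and from 1 to 5 when each animal was left out. The shares of all genes in these fits were 9.12%, 11.7%, 3.56% and from 4.72% to 8.9%, beside 7.18% in the main fit. The number of members that correlated with the interferon score stayed at 5 with values centred within diets and without the 2 animals farthest from the median score. No sign was reversed among the named members that had an unadjusted p below 0.05. The causes of these shifts were not tested.

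TRIM37 in H against L lost its unadjusted p below 0.05 with the mean of all probe sets (-0.28) and with the marker scores as covariates (-0.18). TRIM10 in H against M was -0.64 with those covariates. TRIM28 kept it in 12 of 29 alternatives, TRIM14 in 20 and TRIM37 in 27. No paired analysis was possible because each replicate number in the labels belongs to 1 animal and is shared by no other group, and litter is not given. The log2 RMA values hold no read depth, so precision is set by the 6 to 7 animals in a group.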

Other observations

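Beside the probe set that stood for each gene, 13 members had a further kept probe set, which were compared after seeing the data. The sign of H against L was shared in 10 of the 13. One of them followed the interferon score after adjustment over the 13, the second probe set of TRIM39, a regulator of cell cycle and apoptosis, with r = 0.690 and rho = 0.725 (permutation test, adjusted p = 0.00754). The first probe set of TRIM39 had r = 0.243, and the pair correlated at 0.220. Likewise, the second probe sets of TRIM56 and TRIM21 had r of 0.159 and 0.244 with that score, below the r of 0.838 and 0.873 of the first, and that of TRIM26 had 0.545 (adjusted p = 0.0872), below 0.807. The second probe set of TRIM56 had r = 0.034 with its first. Which transcripts the probe sets match was not tested.

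Without H17, the array of lowest correlation with the others, r with the interferon score was 0.899 for TRIM21, 0.859 for TRIM14, 0.848 for TRIM56, 0.834 for TRIM26, 0.773 for TRIM25 and 0.571 for TRIM38.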
